A study of Homo sapiens with 12 samples.

Results

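The 10 genes described here encode the NF-kappaB subunits (RELA, REL, RELB, NFKB1 and NFKB2), 2 inhibitors that bind them (NFKBIA and NFKBIE), the ubiquitin-editing enzyme TNFAIP3, the ubiquitin-conjugating enzyme UBE2N and its ligase partner TRAF6. They were taken by gene name from the 36866 genes of the deposited table, and all 10 passed the filter on low values in both cell lines. They were selected on earlier results for these data, in which UBE2N was a gene changed by honokiol in U-937. The cells were THP-1 and U-937, acute myeloid leukemia (AML) lines of monocytic type with complex karyotypes. Each line received honokiol or only the solvent (0.1% DMSO) for 24 h, and poly(A) mRNA was sequenced from 3 libraries per group. Honokiol is a small molecule from magnolia bark, here dissolved in DMSO. The sample labels list doses of 20 and 35 μM without naming the line, so the dose each line received before sequencing stays unknown here. Each line is a single established line, and nothing in the labels says that the 3 libraries of a group came from separate cultures, so the p-values measure the spread between these libraries, which may be technical.

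NF-kappaB proteins act as dimers that are held in the cytoplasm by inhibitors of the IkappaB family. In the canonical pathway, receptors for TNF, IL-1 or bacterial products recruit TRAF ligases, UBE2N builds chains linked through lysine 63 of ubiquitin, and these chains bring together the TAK1 and IKK kinases, which mark the inhibitor for destruction. The freed dimers then switch on their own inhibitors, among them NFKBIA, NFKBIE and TNFAIP3, as well as NFKB2 and RELB, so that the transcripts of these genes can rise when the pathway is active. The activity of the pathway itself was not measured here. UBE2N and TRAF6 belong to the signaling step and are not known as feedback targets.

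The deposited counts summed to between 57406966 and 75065752 per library, and the log2 levels of replicate libraries had a correlation of 0.963 to 0.977 across genes, which are not independent replicates. Myeloid genes such as SPI1, LYZ and ELANE were present in all 12 libraries, while CD3D, CD3E, KRT19 and CDH1, markers of T and epithelial cells, stayed at or below 0.23 FPKM (fragments scaled by transcript length and library size, the level used throughout). MPO, a myeloid granule enzyme, was at 20.2 FPKM or more in every THP-1 library and at or below 0.17 FPKM in every U-937 library. The share of mitochondrial transcripts was 13.7% (THP-1) and 12.6% (U-937) in both libraries named DMSO replicate 1, and it was 5.61% to 7.55% elsewhere.

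A pair of U-937 libraries stood apart in the genes described here, and this bears on all results in that line. DMSO replicate 1 and honokiol replicate 2 were the 2 highest of the 6 U-937 libraries for 5 of the 10 genes, RELB, NFKB2, NFKBIA, NFKBIE and TNFAIP3. Among all 13726 genes tested in U-937 the same pair was highest for 6.81%. PELI1 and CD40, which were at 1.41 FPKM or more in every THP-1 library, were at or below 0.03 FPKM in both, as in the line they are labelled as. These genes do not bear on the treatment label, and UBE2N, chosen for its difference with honokiol, is no independent check of it. Whether the treatment labels of these libraries were exchanged was not tested, and every U-937 fold change rests on those labels. The share of mitochondrial counts was raised in DMSO replicate 1 and was 6.05% in honokiol replicate 2. The part of these library properties in the results was not tested, and the U-937 values of the 5 genes are given with and without the pair.

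The start regions of the 10 genes are shown because several of these genes are known targets of NF-kappaB itself. The 250 bases before each RefSeq start site (GRCh38.p14) were searched on both strands for the 10-base kappaB consensus, the sequence bound by NF-kappaB dimers. Of the 10 genes, 8 had such a window in the table, with 12 windows between them, and RELB and NFKBIE had none. A match was found for 5 genes, NFKBIA, NFKB2, TNFAIP3, NFKB1 and REL, and none for RELA, UBE2N or TRAF6. Of the genes with a match, NFKB1 (DMSO replicates 1 and 2) and REL (honokiol replicates 1 and 3) had other U-937 libraries highest than the pair that stood apart. The NFKB2 matches lay before later start sites, inside the deposited interval of the gene. The NFKB2 window just before that interval (chr10:102393860-102394109) held none. The REL match also lay inside the deposited interval of its gene. Counted by window, 6 of the 12 windows of these genes held a match, against 5.21% of all 35116 windows, and windows of one gene are not independent. The lines below give 30 bases around matches, read 5′ to 3′ on the strand of the gene, with the matching bases in capitals. Not every NFKB2 stretch with a match is printed. In REL and in the upstream stretch of NFKB2 the capitals hold overlapping matches on both strands.
NFKBIA, chr14:35404811-35404840, minus strand: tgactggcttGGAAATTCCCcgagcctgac
NFKB2, chr10:102394462-102394491, plus strand: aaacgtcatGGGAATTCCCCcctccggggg
NFKB2, chr10:102395674-102395703, plus strand: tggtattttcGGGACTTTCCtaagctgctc
TNFAIP3, chr6:137867188-137867217, plus strand: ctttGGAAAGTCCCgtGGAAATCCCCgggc
NFKB1, chr4:102501300-102501329, plus strand: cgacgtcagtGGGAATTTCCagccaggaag
REL, chr2:60881518-60881547, plus strand: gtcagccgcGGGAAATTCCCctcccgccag
The match of NFKBIA ended 71 bases before its start site and the pair of TNFAIP3 45 bases before. The 2 matches of TNFAIP3 do not overlap and lie within 1 stretch. A match is a description of letters and shows no binding, and a window without one says only that these letters are not in it.

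UBE2N (ENSG00000177889, chr12:93405673-93441947, minus strand) encodes the enzyme that builds chains linked through lysine 63. In DMSO-treated U-937 cells its level was 14.7, 15.3 and 17.4 FPKM in the 3 libraries, and with honokiol it was 8.11, 8.29 and 7.78 FPKM. The 3 honokiol libraries lay within 0.6 FPKM of each other and all below the DMSO libraries. The mean fell from 15.8 ± 1.43 to 8.06 ± 0.259 FPKM (SD, n = 3). On counts scaled between libraries by TMM, edgeR gave a log2 fold change of -1.06 ± 0.12 (SE), or 0.480 of the DMSO level. FPKM is not scaled in this way, and limma on log2 FPKM gave -0.93 and -0.96 with pseudocounts of 0.5 and 0.1, both under 1 in size. In THP-1 cells UBE2N was at 7.31, 7.21 and 7.53 FPKM with DMSO and at 6.50, 6.13 and 5.63 FPKM with honokiol, again without overlap. The log2 fold change there was -0.33 ± 0.13. UBE2N was chosen with its U-937 value known, so these values are a description.

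In U-937, 1 of the 10 genes (UBE2N) passed the limits of a Benjamini-Hochberg adjusted p under 0.05 in edgeR and a log2 fold change above 1 in size, as did 0.0947% of all genes tested. In THP-1 none of the 10 passed, against 0.0411% of all genes. Since the genes were chosen with these values in view, nothing is read from the counts. UBE2N did not pass in any of the 6 fits of the U-937 comparison that left out a library, although its log2 fold change stayed between -1.09 and -1.02, and with both DMSO replicate 1 and honokiol replicate 2 left out it was -1.09. UBE2N also missed the limits with limma at pseudocounts of 0.5 (-0.93, limma adjusted p = 0.0647) and 0.1 (-0.96, limma adjusted p = 0.0662). It missed them with a replicate block (edgeR adjusted p = 0.217). It passed with DESeq2 (DESeq2 adjusted p = 4.03e-11) and in one edgeR fit of all 12 libraries (edgeR adjusted p = 0.00162). These called 223 and 108 of all genes. It also passed in edgeR with RLE size factors or counts divided by 4 (edgeR adjusted p = 0.0345 for both) and with no filter on low values (edgeR adjusted p = 0.049). The U-937 response was lower than the THP-1 response by -0.74 ± 0.15 on the log2 scale. The lines may have received different doses, so line and dose cannot be told apart in this value. This difference between the lines did not pass in edgeR (adjusted p = 0.134) and passed in DESeq2 (adjusted p = 0.000664), and 0.111% of all genes passed in edgeR.

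The protein-coding gene NUDT4 overlaps UBE2N over 2474 bases on the opposite strand, and the sources used here do not say whether strand was used in counting. NUDT4 ranged from 1.10 to 10.4 FPKM over the 12 libraries, and its log2 fold change in U-937 was -0.19 ± 0.32. The near-copies UBE2NL and UBE2NP1 had at most 17 and 3 counts in a library, against 2643 to 7973 counts for UBE2N. UBE2V1 and UBE2V2 encode the inactive partners that UBE2N needs for these chains; UBE2V2 is named for this role, after its values were seen. UBE2V1 had a log2 fold change of -0.37 ± 0.18 in U-937 and -0.53 ± 0.29 in THP-1. UBE2V2 stood at -0.28 ± 0.14 and -0.22 ± 0.20. Neither passed the test in either line.

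TRAF6 (ENSG00000175104, chr11:36483769-36510272, minus strand), the ligase that works with UBE2N below IL-1 and Toll-like receptors, had the lowest mean of the 10 genes in every group. It was at 1.46, 1.42 and 1.70 FPKM in THP-1 with DMSO and at 1.29, 1.58 and 1.28 FPKM with honokiol. In U-937 it was at 1.98, 2.07 and 1.71 FPKM with DMSO and at 1.86, 1.97 and 2.44 FPKM with honokiol. The treatments overlapped in both lines, with log2 fold changes of -0.19 ± 0.18 and 0.03 ± 0.19. TRAF6 rested on 821 to 1402 counts per library.

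**Figure D1:**
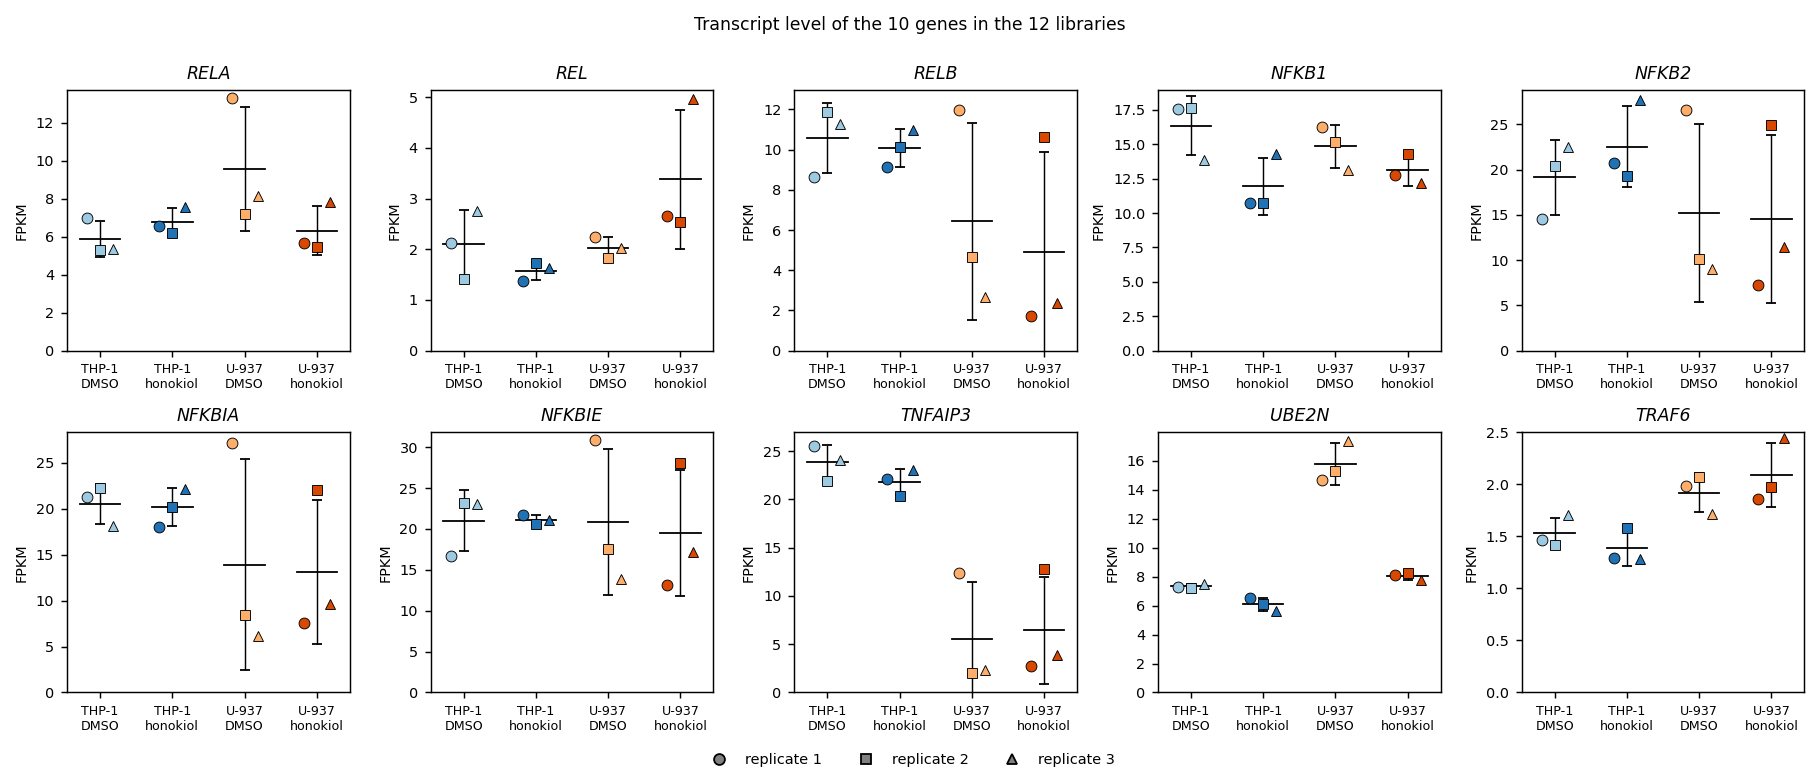
Level of each of the 10 genes in FPKM (vertical axes, each from 0) in the 12 libraries, by line and treatment. Points are libraries with a marker for each replicate number, horizontal lines are means and bars are SD (n = 3). UBE2N fell from 15.8 to 8.06 FPKM in U-937 with little spread, while RELB, NFKB2, NFKBIA, NFKBIE and TNFAIP3 were each higher in DMSO replicate 1 and honokiol replicate 2 than in the other 4 U-937 libraries.

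RELA and REL are among the subunits that carry domains that activate transcription. RELA (ENSG00000173039, chr11:65653597-65663090, minus strand) was at 13.3, 7.20 and 8.16 FPKM in U-937 with DMSO and at 5.68, 5.46 and 7.83 FPKM with honokiol. The groups overlapped, and the highest value was that of DMSO replicate 1. The log2 fold change was -0.70 ± 0.28, and -0.34 at the smallest when a library was left out. In THP-1, RELA was at 7.00, 5.31 and 5.36 FPKM with DMSO and at 6.55, 6.20 and 7.57 FPKM with honokiol, which overlapped (0.13 ± 0.19).

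REL (ENSG00000162924, chr2:60881521-60931612, plus strand), the subunit known for its role in lymphoid and myeloid cells, was at 2.25, 1.83 and 2.02 FPKM in U-937 with DMSO and at 2.65, 2.53 and 4.96 FPKM with honokiol. The groups did not overlap, and the log2 fold change was 0.65 ± 0.28. Honokiol replicate 3 carried much of this difference, since the lowest value with a library left out was 0.25. In THP-1 REL was at 2.12, 1.41 and 2.76 FPKM with DMSO and at 1.37, 1.73 and 1.62 FPKM with honokiol, which overlapped (-0.47 ± 0.25). The noncoding gene AC010733 lies over 5702 bases of REL on the same strand and was lowest, at 0.62 FPKM, in the U-937 library where REL was highest. It was also lowest of the THP-1 libraries, at 1.23 FPKM, in DMSO replicate 3, where REL was highest in that line. How the counting split reads between these overlapping genes is not given in the sources used here, and its part in the REL values was not tested.

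In all, 1 of the 10 genes was lower without overlap in U-937 (UBE2N, against 7.50% of all genes) and 1 was higher (REL, against 16.7%). In THP-1, 1 of the 10 was lower without overlap (UBE2N, against 7.62%) and none was higher. The counts are printed beside the background of all genes and carry no test.

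NFKB1 (ENSG00000109320, chr4:102501331-102617302, plus strand) encodes p105 and its product p50, the usual partner of RELA. In THP-1 it was at 17.6, 17.6 and 13.9 FPKM with DMSO and at 10.7, 10.8 and 14.3 FPKM with honokiol. Replicates 1 and 2 with honokiol lay below all DMSO libraries and replicate 3 did not, and the log2 fold change was -0.52 ± 0.18. In U-937 NFKB1 was at 16.2, 15.2 and 13.2 FPKM with DMSO and at 12.8, 14.3 and 12.2 FPKM with honokiol, a log2 fold change of -0.28 ± 0.14 with overlap. DMSO replicate 1 and honokiol replicate 2 were each the highest of their group, but within 3.1 FPKM of the lowest.

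NFKB2 (ENSG00000077150, chr10:102394110-102402524, plus strand) encodes p100 and p52 of the noncanonical pathway. It was at 14.5, 20.4 and 22.5 FPKM in THP-1 with DMSO and at 20.7, 19.3 and 27.7 FPKM with honokiol (0.19 ± 0.18). U-937 cells had 26.6, 10.1 and 9.03 FPKM with DMSO and 7.23, 24.9 and 11.4 FPKM with honokiol. The pair of libraries that stood apart was at 24.9 FPKM or more and the other 4 libraries at 11.4 FPKM or less, whichever the treatment. The log2 fold change in U-937 was -0.19 ± 0.54. It was 0.53 without DMSO replicate 1, -0.81 without honokiol replicate 2 and -0.08 without both.

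RELB (ENSG00000104856, chr19:45001449-45038198, plus strand), the dimer partner of p52, showed the same order of libraries. U-937 cells had 11.99, 4.65 and 2.68 FPKM with DMSO and 1.73, 10.6 and 2.36 FPKM with honokiol. In THP-1 it was at 8.62, 11.9 and 11.3 FPKM with DMSO and at 9.14, 10.1 and 11.0 FPKM with honokiol. The 2 high U-937 libraries thus lay in the range of the THP-1 libraries or just above it, and the other 4 below it. The log2 fold change was -0.53 ± 0.76 in U-937, -1.75 without honokiol replicate 2, 0.34 without DMSO replicate 1 and -0.89 without both, and it was -0.12 ± 0.15 in THP-1.

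**Figure D2:**
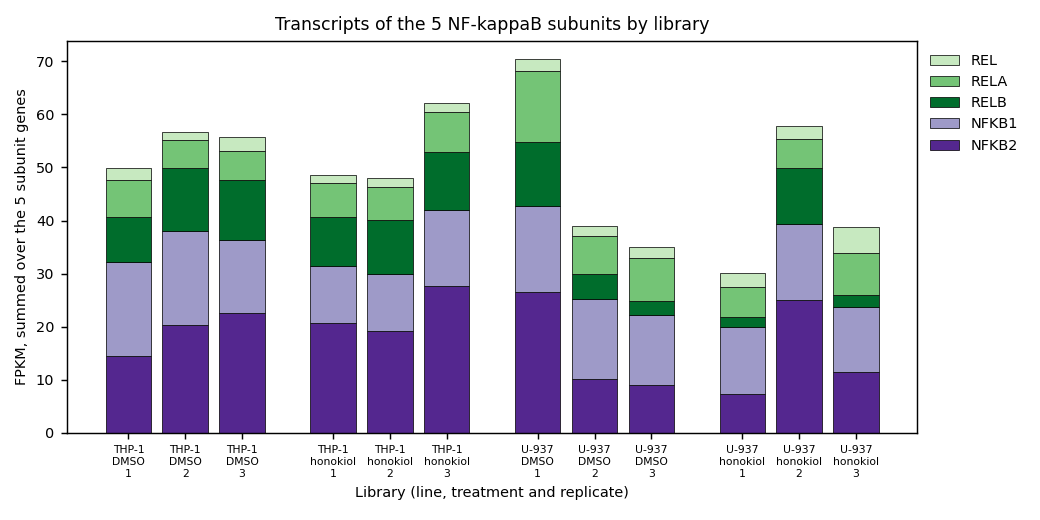
Level of the 5 NF-kappaB subunit genes in FPKM (vertical axis), stacked in 1 bar for each of the 12 libraries. The summed level was 48.1 to 62.2 FPKM in the THP-1 libraries, 70.4 and 57.9 FPKM in DMSO replicate 1 and honokiol replicate 2 of U-937, and 30.1 to 39.0 FPKM in the other 4 U-937 libraries.

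As a share of the summed FPKM of the 5 subunits, NFKB2 took 35.2% ± 5.63 (SD, n = 3) in THP-1 with DMSO, NFKB1 30.4% ± 5.22, RELB 19.5% ± 1.96, RELA 11.0% ± 2.63 and REL 3.90% ± 1.27. With honokiol the share of NFKB1 in THP-1 was 22.1%, 22.4% and 23.0%, below the 35.3%, 31.1% and 24.9% of the DMSO libraries. In U-937 the share of RELB was 17.0% and 18.4% in the pair that stood apart and 5.75% to 11.9% in the other 4 libraries, and that of NFKB1 was 23.1% and 24.7% against 31.4% to 42.5%. For both genes each treatment group of U-937 thus held 1 library of the pair and 2 of the others, and the difference was not tested.

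NFKBIA (ENSG00000100906, chr14:35401513-35404749, minus strand) encodes IkappaB-alpha, the inhibitor that is destroyed and made again in each round of signaling. In THP-1 it was at 21.2, 22.3 and 18.1 FPKM with DMSO and at 18.1, 20.2 and 22.2 FPKM with honokiol. These groups covered the same range (-0.09 ± 0.15). In U-937 it was at 27.1, 8.43 and 6.19 FPKM with DMSO and at 7.58, 22.0 and 9.59 FPKM with honokiol. DMSO replicate 1 and honokiol replicate 2 were at more than 20 FPKM and the rest below 10 FPKM. The log2 fold change in U-937 was -0.22 ± 0.61. It was 0.76 without DMSO replicate 1, -0.80 without honokiol replicate 2 and 0.18 without both, so its sign followed the libraries kept.

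NFKBIE (ENSG00000146232, chr6:44258166-44265788, minus strand) encodes IkappaB-epsilon, a second inhibitor of RELA and REL dimers. It was at 16.8, 23.2 and 23.1 FPKM in THP-1 with DMSO and at 21.8, 20.6 and 21.1 FPKM with honokiol (-0.04 ± 0.14). The U-937 libraries were at 30.9, 17.6 and 13.9 FPKM with DMSO and at 13.1, 28.1 and 17.2 FPKM with honokiol (-0.21 ± 0.37, and -0.11 without the pair). The same pair of U-937 libraries was highest, by a smaller factor than for NFKBIA.

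TNFAIP3 (ENSG00000118503, chr6:137867214-137883312, plus strand) encodes A20, which removes chains linked through lysine 63 and ends the signal. It had the highest mean of the 10 genes in THP-1 with DMSO, at 25.5, 21.9 and 24.1 FPKM, and it was at 22.1, 20.4 and 23.1 FPKM with honokiol (-0.19 ± 0.14). The U-937 libraries were at 12.4, 2.01 and 2.31 FPKM with DMSO and at 2.70, 12.8 and 3.85 FPKM with honokiol. The 2 high libraries were at more than 12 FPKM and the other 4 below 4 FPKM. The log2 fold change in U-937 was 0.06 ± 0.81, and it was 1.50 without DMSO replicate 1, -0.88 without honokiol replicate 2 and 0.55 without both.

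**Figure D3:**
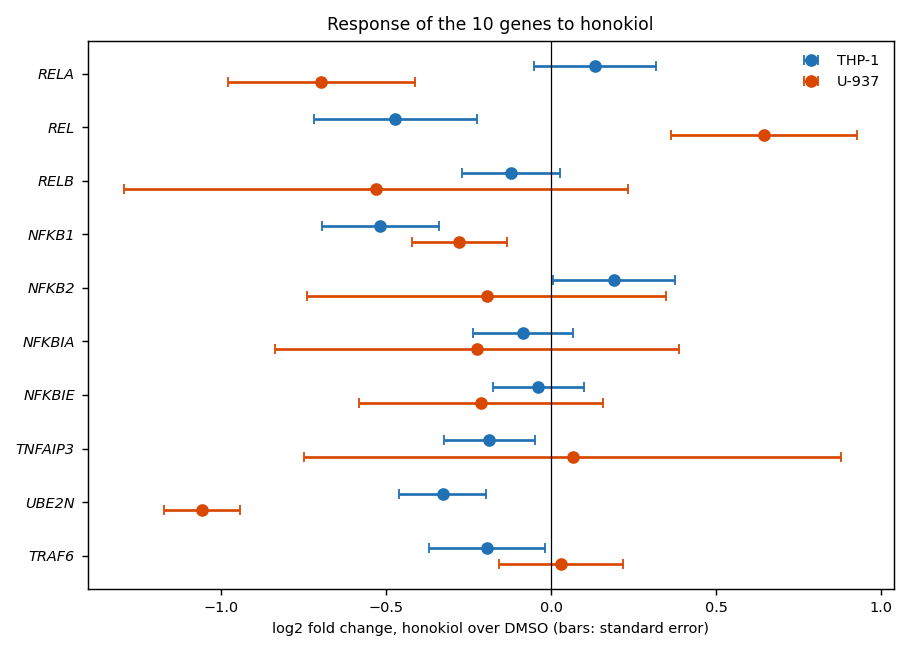
Log2 fold change of honokiol over DMSO (horizontal axis) for the 10 genes in THP-1 (blue) and U-937 (orange), with bars for the standard error. UBE2N, at -1.06 in U-937, has a bar of 0.12, while RELB, NFKB2, NFKBIA and TNFAIP3 have bars of 0.54 to 0.81 in U-937 that reach across 0.

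A list of 30 well-known NF-kappaB target genes was read for the same order of libraries. Of the 23 tested in U-937, 14 (60.9%) had DMSO replicate 1 and honokiol replicate 2 as the 2 highest libraries, against 6.81% of all genes. IL1B, which encodes the cytokine IL-1 beta, was at 15.9, 1.25 and 1.13 FPKM with DMSO and at 1.82, 15.4 and 2.01 FPKM with honokiol. The chemokine gene CXCL8 was at 59.0, 19.6 and 18.4 FPKM with DMSO and at 5.46, 54.3 and 4.64 FPKM with honokiol. ICAM1, an adhesion molecule, was at 40.9, 18.3 and 14.8 FPKM and at 18.4, 40.8 and 21.4 FPKM. IL1B, CXCL8 and ICAM1 were named after their values were seen. These genes had the same pair highest as the inhibitors. The rest of the 23 beyond the 14 did not, among them TNF, CCL2, BCL2A1, GADD45B and PLAU. In THP-1 no pair of libraries was highest for more than 3 of the 10 genes or 5 of the 22 target genes tested. The pair with 3 of the 10 genes was DMSO replicates 1 and 3, against 5.52% of all genes. For the target genes it was honokiol replicates 2 and 3, with 22.7% against 16.5% of all genes.

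**Figure D4:**
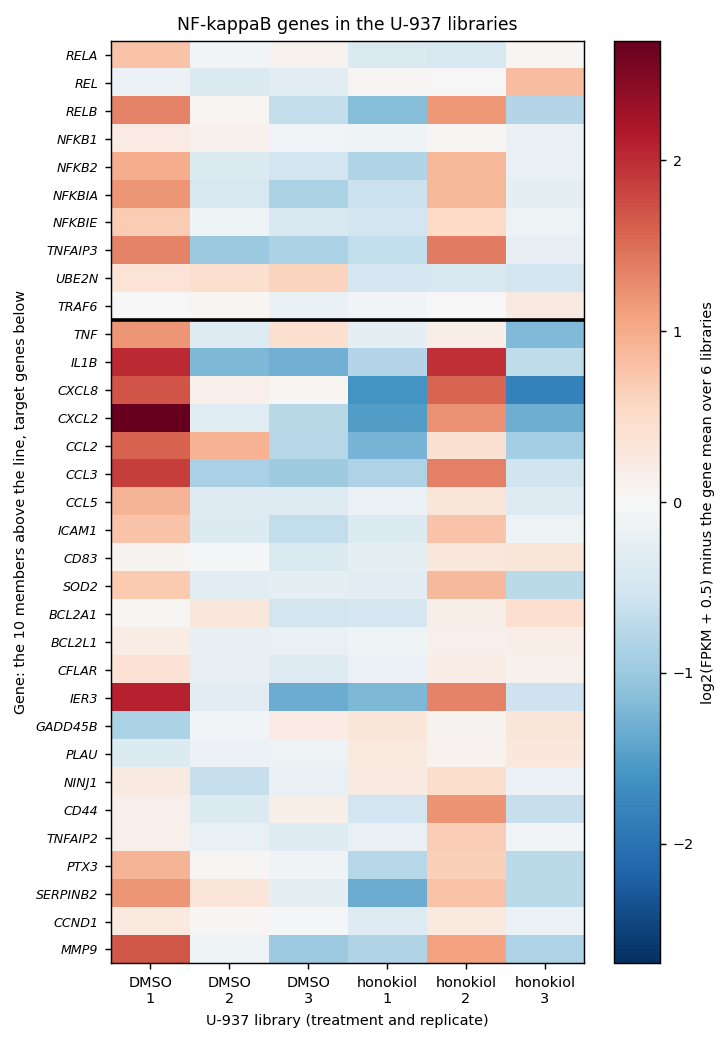
Color gives log2(FPKM + 0.5) minus the mean of the gene over the 6 U-937 libraries (columns) for the 10 genes above the line and the 23 tested target genes below it (rows). RELB, NFKB2, NFKBIA, NFKBIE and TNFAIP3 and 14 of the 23 target genes are highest in DMSO replicate 1 and honokiol replicate 2, and UBE2N is higher in all DMSO libraries.

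No target gene passed the test for honokiol in edgeR in either line. In THP-1, 0 of 22 tested passed, 4 had an unadjusted p under 0.05, DESeq2 called 1 and limma 0. In U-937, 0 of 23 passed, 1 had an unadjusted p under 0.05 and neither DESeq2 nor limma called any. Over all genes tested, 1907 of 14600 (THP-1) and 2291 of 13726 (U-937) had an unadjusted p under 0.05. DESeq2 called 250 and 223 of them. The list had a median log2 fold change of 0.07 (THP-1) and -0.14 (U-937), against 0.00 and 0.02 over all genes tested. The lowest in THP-1 was TNF, the cytokine that starts the pathway, at 27.0, 17.8 and 13.5 FPKM with DMSO and 5.93, 7.46 and 3.78 FPKM with honokiol. Its groups did not overlap, and its log2 fold change of -1.84 ± 0.35 missed the threshold in edgeR (adjusted p = 0.136) and passed in DESeq2 (adjusted p = 3.97e-05). BCL2A1, an antiapoptotic gene, stood highest in THP-1 at 1.11 ± 0.35. In U-937 the lowest were the chemokine genes CXCL2 (-1.79 ± 1.44) and CCL2 (-1.41 ± 0.63), both highest in DMSO replicate 1.

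The DMSO-treated lines were compared with each other in the fit of 12 libraries. This comparison did not choose the genes, but it shares its DMSO libraries with the honokiol comparisons. Of the 10 genes, 2 passed, against 34.0% of all genes tested. UBE2N was higher in U-937 by 1.05 ± 0.11 on the log2 scale (2.08-fold, edgeR adjusted p = 8.04e-06), with the 3 libraries of U-937 above the 3 of THP-1, and it passed in all 12 fits that left out a library. TNFAIP3 was lower in U-937 by -2.11 ± 0.70 (0.232 of the THP-1 level, edgeR adjusted p = 0.0227). The call of TNFAIP3 was lost without THP-1 DMSO replicate 1 (edgeR adjusted p = 0.0507), without U-937 DMSO replicate 2 (0.0726) and without U-937 DMSO replicate 3 (0.0735). DESeq2 gave no adjusted p for it.

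DMSO replicate 1 of U-937 set several of these values. Without it, TNFAIP3 was lower by -3.55 (edgeR adjusted p = 0.000393), NFKBIA by -1.57 (0.00588) and NFKB2 by -1.07 (0.0481), and the last 2 then passed. With all libraries NFKBIA stood at -0.58 ± 0.51, NFKB2 at -0.34 ± 0.46 and RELB at -0.72 ± 0.63, none of which passed. RELA was higher in U-937 without overlap, at 0.65 ± 0.26 (edgeR adjusted p = 0.0506), below the limit on size. TRAF6 was also higher without overlap, at 0.29 ± 0.18 (adjusted p = 0.194). REL (-0.09 ± 0.29), NFKB1 (-0.19 ± 0.17) and NFKBIE (-0.03 ± 0.31) did not pass and their groups overlapped. In all, 3 of the 10 genes were higher and 1 lower in U-937 without overlap, against 27.7% and 29.0% of all genes (56.7% in either direction).

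In the order of mean levels, THP-1 with DMSO had TNFAIP3 at 23.9 FPKM, then NFKBIE, NFKBIA, NFKB2 and NFKB1 at 16.4 FPKM, and each of these overlapped with the next. RELB at 10.6, UBE2N at 7.35 and RELA at 5.89 FPKM followed, each apart from its neighbours, and REL and TRAF6 were lowest and overlapped with each other. In U-937 with DMSO the order began with NFKBIE at 20.8 FPKM and UBE2N at 15.8 FPKM and ended with TRAF6 at 1.92 FPKM, and every gene overlapped with the next. With honokiol UBE2N stood below NFKBIE, NFKB2, NFKB1 and NFKBIA in U-937.

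The other genes of the pathway were read by lists. None of their members passed in the edgeR fit within each line or for the difference between lines, and limma called none. Over all genes tested, unadjusted p was under 0.05 for 1907 of 14600 (THP-1), 2291 of 13726 (U-937) and 1525 of 16283 (difference). DESeq2 called 250, 223 and 244 of all genes. Among 6 genes of the IkappaB family and its co-regulators, unadjusted p was under 0.05 for 1 in THP-1, 2 in U-937 and 0 for the difference, and DESeq2 called none. The transcriptional repressor NKRF (-0.52 ± 0.16) and the inhibitor NFKBIB (-0.45 ± 0.17) were the lowest in U-937, both without overlap. Among the IKK complex and its kinases, the test covered 10 of 11 (THP-1) and all 11 (U-937), and unadjusted p was under 0.05 for 1 in each line and for 1 for the difference.

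MAP3K8, the kinase TPL2 that is held by p105, stood highest of the kinase list in both lines. In U-937 it was at 1.69, 1.34 and 1.31 FPKM with DMSO and at 3.25, 4.46 and 4.96 FPKM with honokiol, without overlap. Its log2 fold change of 1.45 ± 0.24 missed the threshold in edgeR (adjusted p = 0.0687) and passed in DESeq2 (adjusted p = 5.78e-06) and in one edgeR fit of all 12 libraries (adjusted p = 0.00994). In THP-1 it was at 4.36, 4.08 and 4.74 FPKM with DMSO and at 6.66, 6.39 and 7.06 FPKM with honokiol (0.55 ± 0.15, edgeR adjusted p = 0.227). In both lines every honokiol library was above every DMSO library for MAP3K8.

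Of the ligases and partners that build chains linked through lysine 63 or linear chains, the test covered 19 of 21 (THP-1) and 20 (U-937). Unadjusted p was under 0.05 for 1 and 4 of them and for 2 for the difference, and DESeq2 called BIRC2 in U-937. For this list and the next 2, the background was again 1907 of 14600, 2291 of 13726 and 1525 of 16283 genes. BIRC2, which encodes cIAP1, stood at 1.06 ± 0.29 in U-937 without overlap (edgeR adjusted p = 0.159), and PELI2 at 0.57 ± 0.15 in THP-1. Among 15 deubiquitinases and ubiquitin editors tested, unadjusted p was under 0.05 for 1 in THP-1, 2 in U-937 and 1 for the difference, and DESeq2 called none. CYLD, which removes the same chains as A20, stood at 0.56 ± 0.23 in U-937, and OTUB1, an inhibitor of UBE2N, at -0.54 ± 0.18, both without overlap. Of the receptors and adaptors, the test covered 20 of 21 (THP-1) and 17 (U-937), with unadjusted p under 0.05 for 5, 1 and 5 for the difference, of which DESeq2 called TNFRSF1B for the difference. TNFRSF1B, a TNF receptor, stood at -0.73 ± 0.19 in U-937 without overlap and at 0.26 ± 0.14 in THP-1.

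Between the DMSO-treated lines more of these genes differed. The counts past the test in edgeR were 13 of 26 target genes (10 higher and 3 lower in U-937), 5 of 11 kinases, 3 of 6 of the IkappaB family, 6 of 20 receptors and adaptors, 4 of 21 ligases and partners and 2 of 15 deubiquitinases and editors, against 34.0% of all genes. Of the target genes with the largest differences, SERPINB2, CCL2, CXCL8 and CXCL2 were highest of the U-937 DMSO libraries in replicate 1, and BCL2A1 was not. CXCL2 was at 11.05, 0.94 and 0.57 FPKM there. Counts for these lists without that library are not given here. MAP3K7, the kinase TAK1 that the chains made by UBE2N bring together with IKK, was lower in U-937, at 4.42 ± 0.642 against 14.8 ± 1.91 FPKM (edgeR adjusted p = 1.86e-06). IRAK1, the kinase that passes the signal to TRAF6, was higher, at 193 ± 12.1 against 57.5 ± 3.96 FPKM (edgeR adjusted p = 1.12e-06), and IRAK3, its inhibitory relative, was lower, at 6.01 ± 0.582 against 43.7 ± 2.49 FPKM (edgeR adjusted p = 1.58e-08). The inhibitor genes NFKBIB (1.36 ± 0.16) and COMMD1 (1.49 ± 0.17) were higher and NFKBIZ (-1.93 ± 0.55) was lower on the log2 scale. NFKBIZ was at 2.22, 0.69 and 0.43 FPKM in U-937 with DMSO, and its difference was -2.98 without DMSO replicate 1. The A20 partner TNIP1 was lower (-1.35 ± 0.31). BCL2A1 was higher by 4.61 ± 0.38.

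UBE2N was set beside 32 other genes of the E2 family of ubiquitin-conjugating enzymes and their variants. None passed in edgeR in either line or for the difference, and neither DESeq2 nor limma called any. Unadjusted p was under 0.05 for 3 in THP-1, 7 in U-937 and 2 for the difference. Over all genes tested it was for 1907 of 14600, 2291 of 13726 and 1525 of 16283. In U-937, 5 of the 32 were lower and 1 higher without overlap, against 7.50% and 16.7% of all genes. The lowest of them in U-937 were UBE2L3, the partner of the linear chain ligases (-0.58 ± 0.21), and UBE2O (-0.50 ± 0.13), and the highest was UBE2L6, the conjugating enzyme for ISG15 (0.42 ± 0.20). UBE2L3 was also lowest in THP-1 (-0.60 ± 0.25), where UBE2F stood highest (0.63 ± 0.30). Between the DMSO-treated lines 7 of the 32 passed, 2 higher and 5 lower in U-937, among them UBE2E2 (-2.53 ± 0.29) and the mitotic UBE2C (-1.88 ± 0.20).

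**Figure D5:**
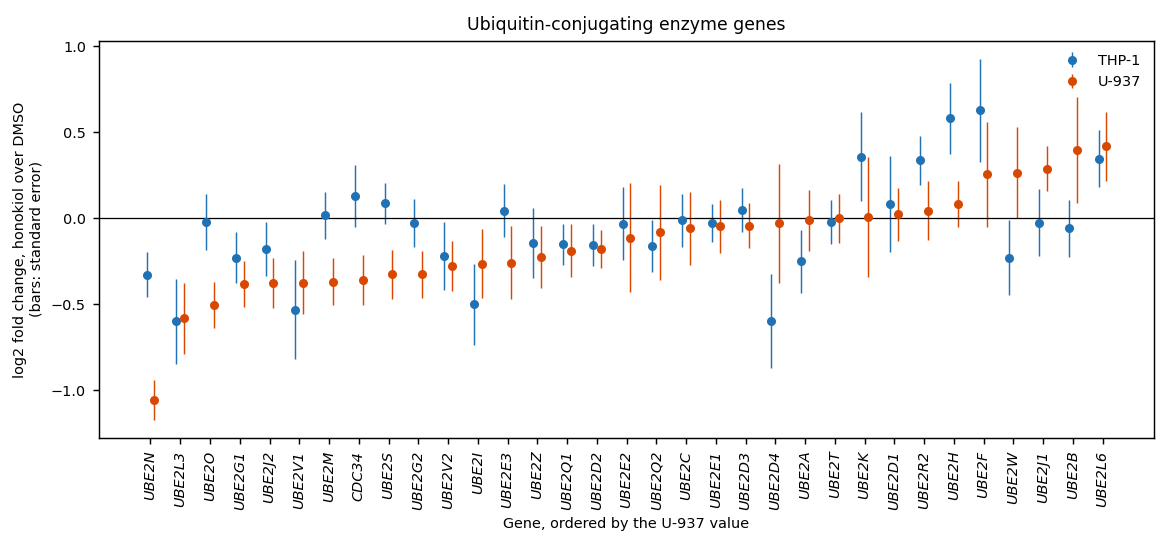
Log2 fold change of honokiol over DMSO (vertical axis, bars are standard errors) for UBE2N and 32 related genes, ordered by the U-937 value, in THP-1 (blue) and U-937 (orange). UBE2N lies at the left end at -1.06 in U-937, followed by UBE2L3 at -0.58.

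The genes with the most similar pattern over the 12 libraries were taken by the root mean square difference of log2(FPKM + 0.5), each gene centered on its mean, among 12246 genes with a mean of at least 1 FPKM. Nearest to UBE2N were PES1 (0.150), PA2G4 (0.158), NAT10 (0.171), TESC (0.173) and KHSRP (0.178). PES1, a ribosome assembly factor, was at mean levels of 17.4 and 16.0 FPKM in THP-1 with DMSO and honokiol and at 38.2 and 23.1 FPKM in U-937. Nearest to NFKBIA were ZC3H12A (0.229), NFKB2 (0.263), BCL9L (0.317), MUC1 (0.333) and ITGB2-AS1 (0.338). ZC3H12A, which encodes the RNase regnase-1, was at 30.8, 7.15 and 4.59 FPKM in U-937 with DMSO and at 5.34, 20.4 and 7.17 FPKM with honokiol. These genes were picked for their likeness, so a shared pattern is no result.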

How the data were processed

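mRNA of 12 libraries was measured. The authors deposited FPKM values (2 decimals, scaled by transcript length and depth) and estimated counts, which they did not normalize and which are whole numbers; the value of 1 fragment is mostly 4 counts. The submitters' processing notes name Bowtie 0.12.2, HISAT2 2.0 and StringTie 1.3.0 and a mouse build, while gene IDs and coordinates are human and match GRCh38. Counting by strand is not given in the sources used here. The labels and the paper name different sequencers, and the series text speaks of a microarray.

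Genes with at least 0.5 FPKM in at least 3 libraries were tested by edgeR 4.0.16 (quasi-likelihood, TMM, Benjamini-Hochberg) in R 4.3.3, within each line (6 libraries) or over 12 libraries. The log2 fold changes given with an SE come from the TMM-scaled counts, so they need not equal the ratio of the mean FPKM values. A gene passed at an adjusted p under 0.05 with the log2 fold change above 1 in size (no limit on size for the difference between lines). limma 3.58.1 on log2(FPKM + 0.5) and log2(FPKM + 0.1), DESeq2 1.42.0, RLE, no filter, counts divided by 4, a replicate block, other sets of libraries and leaving out each library were alternatives. Leaving out 2 U-937 libraries together was added with their values known.

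The 10 genes and the lists were chosen with earlier results of these data known. Named were these 10 genes and, from each list, up to 5 genes that passed and, for honokiol, the 2 highest and 2 lowest by log2 fold change, overlapping genes and near-copies, and the 5 genes most like UBE2N and NFKBIA. Promoters came from RefSeq (GRCh38.p14). The p-values cover the spread between libraries, and the number of libraries limits precision.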

Additional observations from a re-analysis of the deposited data

How the results depend on the processing

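Counts of genes past the test depended on the tool. In THP-1, 6 genes passed, against 250 with DESeq2, 33 in one fit of all 12 libraries and 0 with no filter on low values, with limma at either pseudocount or with the replicate block. In U-937, 13 passed, against 223 with DESeq2, 108 in one fit of 12 libraries, and 0 with the replicate block or without DMSO replicate 1 and honokiol replicate 2. For the difference between lines, 18 passed, against 244 with DESeq2, 2 and 1 with limma at pseudocounts 0.5 and 0.1, and 0 with counts divided by 4 or the replicate block. With 1 library left out the counts were 0 to 43 in THP-1, 0 to 6 in U-937, 1 to 22 for the difference and 5334 to 5500 between DMSO-treated lines, where 5542 passed. The cause was not tested.

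Same-numbered libraries did not deviate together (r of -0.107, -0.155 and 0.0936 in THP-1 and -0.121, -0.104 and -0.108 in U-937), so the numbers were not used to pair the samples. In U-937 each DMSO library correlated best with a honokiol library of another number (r of 0.172, 0.161 and 0.188 for DMSO replicates 1, 2 and 3), and no fit was paired that way. Between the DMSO-treated lines same-numbered libraries had r of 0.0954, 0.0285 and 0.113. With the replicate block 0 genes passed in either line and 5437 between DMSO-treated lines.

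Between DMSO-treated lines the near-zero values of REL and NFKBIE changed sign. With 1 library left out REL was -0.33 to 0.10 and NFKBIE -0.49 to 0.21. REL was 0.00 with limma at a pseudocount of 0.1 and 0.10 without THP-1 DMSO replicate 3. NFKBIE was 0.01 and 0.00 without THP-1 DMSO replicates 2 and 3, and 0.09 and 0.21 without U-937 DMSO replicates 2 and 3. Without DMSO replicate 1 and honokiol replicate 2 of U-937, RELB (-1.59), NFKBIA (-1.56) and NFKB2 (-1.07) passed. UBE2N kept its direction and its call in that comparison under every alternative run. Of the other single-gene values between these lines, IKBKB, CXCL2 and TRAF1 lost their call most often.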

Other observations

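Other genes of the pathway outside the 10 shared their order of U-937 libraries, and they are named after their values were seen. BCL3, a nuclear IkappaB protein that binds p50 and p52, was at 8.45, 2.43 and 1.42 FPKM with DMSO and at 2.19, 6.06 and 2.71 FPKM with honokiol. TRAF1, an adaptor made on NF-kappaB activation, was at 6.18, 1.62 and 0.82 FPKM with DMSO and at 0.91, 6.77 and 2.04 FPKM with honokiol. IRAK2 was at 10.5, 6.66 and 5.69 FPKM and at 7.60, 10.7 and 7.59 FPKM. DMSO replicate 1 and honokiol replicate 2 were the 2 highest libraries for each of these genes.

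The share of tested genes with that pair highest was 33.3% of 6 genes of the IkappaB family, 3 of 20 ligases and partners, 13.3% of 15 deubiquitinases and editors, 11.8% of 17 receptors and adaptors, 9.09% of 11 kinases and 3.12% of 32 genes of the E2 family, against 6.81% of all genes in U-937. These shares are a description of 6 libraries and carry no test.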
